A study of Saccharomyces cerevisiae with 40 samples.

Results

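Ino2 and Ino4 were compared on all genes listed as a target of either factor in Saccharomyces cerevisiae grown with glucose and little oxygen. A gene was a member if it had a value for Ino2, for Ino4 or for both under this condition, and 524 of the 7125 genes named in the tables (7.35%) were members. Of these, 209 genes were listed for both factors, 38 for Ino2 only and 277 for Ino4 only. The series mapped 5 transcription factors (TFs) in 4 chemostat conditions by ChIP-exo, in which an exonuclease trims the immunoprecipitated DNA up to the cross-linked protein, and held 40 samples. The strains came from the uracil auxotroph CEN.PK 113-5D and carried a C-terminal CBP-ProtA tandem affinity tag at the native gene, INO2 in one strain and INO4 in the other, with a Kluyveromyces lactis URA3 marker. Glucose- and oxygen-limited cultures (Ox,Glu-lim) were sparged with nitrogen gas. The other cultures were aerobic, and were limited by glucose (Glu-lim), by nitrogen (N-lim) or by ethanol as the carbon source (Et-lim). Per the study's methods, Tween and ergosterol were added to the Ox,Glu-lim feed and to no other. Low-oxygen and aerobic cultures therefore differed in these additions as well as in oxygen, and the effects were not separated here. The vitamin solution of every feed contained inositol, and no untagged or input sample was analysed here. The labels give 2 biological replicates for each TF and condition, so 4 samples stand behind the low-oxygen comparison. The labels and the study's methods differ on the glucose fed under low oxygen, for which the labels give 1% (w/v). For the aerobic cultures the labels give a carbon source of 0.75% in Glu-lim, 6% in N-lim and 0.5% in Et-lim. The amount of carbon source therefore also differed between conditions, and its effect was not separated here.

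Ino2 and Ino4 are basic helix-loop-helix proteins that bind DNA as a heterodimer. Their site, the inositol-sensitive upstream activating sequence, holds the E-box core CACATG, and E-boxes in general have the form CANNTG. The pair activates phospholipid genes when inositol is scarce. Opi1, a repressor that is held at the endoplasmic reticulum by phosphatidic acid, acts on Ino2 when inositol is plentiful. Because both partners are needed to bind the site, the tables of the partners can be set beside each other gene by gene.

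Each table gave, per gene and condition, the position of the highest binding event, its log2 signal-to-noise ratio, here log2(S/N), the distance from the start codon and a short sequence (k-mer) that the peak finder GEM tied to the event. The authors kept events with log2(S/N) above 1, which is a signal of at least 2 times the noise, and the lowest value listed under low oxygen was 1.00. The duplicates had been merged, so no value has a replicate spread and no difference between the factors could be tested against one. Intervals on shares are exact 95% Clopper-Pearson intervals over genes and cover counting error only. Read depth is unknown. The noise was measured in each factor's own libraries, so an Ino2 value and an Ino4 value are not on a common scale. An absent value means that no event passed the limits, and does not show that the factor was not bound.

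The sequences at the events that recur in the results are printed here because they show the forms of the site and how the events of both factors lie around it. Each run is 31 bases of the reference R64 centred on the listed event, 5′ to 3′ in the direction of the gene, with the gene's strand given. Capitals mark the k-mer listed for that event and any CACATG on either strand, and likewise CACGTG and CATATG.
ITR1, minus strand, Ino4 event, chrIV:1445666-1445696: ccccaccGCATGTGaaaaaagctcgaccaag
HNM1, minus strand, Ino4 event, chrVII:364168-364198: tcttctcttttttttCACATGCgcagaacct
ENO1, plus strand, Ino4 event, chrVII:1000213-1000243: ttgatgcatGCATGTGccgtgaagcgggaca
GLN1, plus strand, Ino4 event, chrXVI:641358-641388: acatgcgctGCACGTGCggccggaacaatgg
INO1, minus strand, Ino2 event, chrX:136174-136204: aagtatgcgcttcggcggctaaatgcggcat
INO1, minus strand, Ino4 event, chrX:136154-136184: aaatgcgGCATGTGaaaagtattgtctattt
OPI3, minus strand, Ino4 event, chrX:573082-573112: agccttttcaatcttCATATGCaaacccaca
OPI1, minus strand, Ino4 event, chrVIII:67642-67672: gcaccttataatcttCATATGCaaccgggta
EPT1, plus strand, Ino4 event, chrVIII:354647-354677: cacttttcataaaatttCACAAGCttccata
PSD1, minus strand, Ino2 event, chrXIV:317814-317844: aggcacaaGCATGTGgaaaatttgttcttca
PSD1, minus strand, Ino4 event, chrXIV:317896-317926: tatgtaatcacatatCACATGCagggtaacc
CYC1, plus strand, Ino2 event, chrX:526186-526216: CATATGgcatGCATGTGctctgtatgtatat
MET6, minus strand, Ino4 event, chrV:342408-342438: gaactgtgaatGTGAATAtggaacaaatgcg
ITR1, HNM1 and ENO1 show the canonical 7-mer CACATGC in either orientation, and GLN1 the related CACGTGC. OPI3 and OPI1 carry CATATGC at an Ino4 event. The INO1 runs overlap, and the canonical site lies at the Ino4 event while the Ino2 event is 20 bp farther from the gene. All of these runs lie upstream of the start codon.

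Most Ino2 targets were also Ino4 targets, and a smaller share of the Ino4 targets were Ino2 targets. Ino2 was listed on 247 genes (3.47% of all genes) and Ino4 on 486 genes (6.82%). Of the Ino2 genes, 84.6% (79.5 to 88.9) were also listed for Ino4, whereas 43.0% (38.6 to 47.5) of the Ino4 genes were also listed for Ino2. Both were listed on 2.93% of all genes, Ino2 only on 0.533% and Ino4 only on 3.89%. Because divergent genes can be assigned the same event, the genes correspond to fewer sites. The 209 shared genes had 150 distinct pairs of events, the 38 Ino2-only genes 25 events and the 277 Ino4-only genes 192 events. The single-partner genes were not shared sites assigned to different genes. No event of an Ino2-only or Ino4-only gene had an event of the other factor within 100 bp on any gene. The single-partner counts rest on low values, since with both lists limited to log2(S/N) above 2 there were 15 Ino2-only and 112 Ino4-only genes.

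In the other conditions the asymmetry took other forms. In Glu-lim, Ino2 was listed on 631 genes and Ino4 on 535, with 445 shared. In N-lim the counts were 133 for Ino2 and 166 for Ino4, with 98 shared. In Et-lim, Ino2 was listed on 725 genes and Ino4 on 178, and 171 were shared. There the Ino4 list lay almost wholly inside the Ino2 list (96.1% of it). The Ino4 values listed in Et-lim were high, with a median of 4.68, against 2.24 under low oxygen, 2.50 in Glu-lim and 2.98 in N-lim. For Ino2 in Et-lim the median was 2.34. The Et-lim shares therefore set a short list of mostly strong Ino4 events against a long Ino2 list. The share of Ino2 genes also listed for Ino4, 84.6% under low oxygen, was 70.5% in Glu-lim, 73.7% in N-lim and 23.6% in Et-lim. The share of Ino4 genes also listed for Ino2, 43.0% under low oxygen, was 83.2% in Glu-lim and 59.0% in N-lim, so it was lowest under low oxygen. The list lengths cap this share. Under low oxygen the 247 Ino2 genes could cover only part of the 486 Ino4 genes, whereas in Glu-lim the Ino2 list was the longer.

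Shared genes had higher values than single-partner genes for both factors. The median Ino2 log2(S/N) was 2.72 on shared genes (range 1.18 to 6.35) and 1.64 on Ino2-only genes (1.03 to 2.94). For Ino4 the median was 3.50 on shared genes (1.10 to 7.85) and 1.74 on Ino4-only genes (1.00 to 5.78). Above a log2(S/N) of 2 lay 79.4% of the Ino2 values on shared genes and 13.2% of those on Ino2-only genes, and 83.3% of the Ino4 values on shared genes and 33.9% of those on Ino4-only genes. The ranges of the classes overlapped for either factor. These are the values on which membership in the list itself depended, so they are given as a description.

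The share of genes with the partner listed varied with the level for both factors. Of the Ino2 genes with log2(S/N) from 1 to 1.5, 14 of 27 were also listed for Ino4, and from 1.5 to 2 the number was 29 of 49. From 2 to 3 it was 89 of 94, and above 3 all 77 Ino2 genes had Ino4. Of the Ino4 genes from 1 to 1.5, 15 of 122 (12.3%) were also listed for Ino2, and from 1.5 to 2 the number was 20 of 96. It was 53 of 123 from 2 to 3, 33 of 45 from 3 to 4 and 44 of 46 from 4 to 5. In the highest class, above 5, the number was 44 of 54, or 81.5% (68.6 to 90.7). The 5 Ino2-only genes above 2 were the Ino2 exceptions, whereas 94 Ino4-only genes were above 2 and 12 of them above 4.

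**Figure D1:**
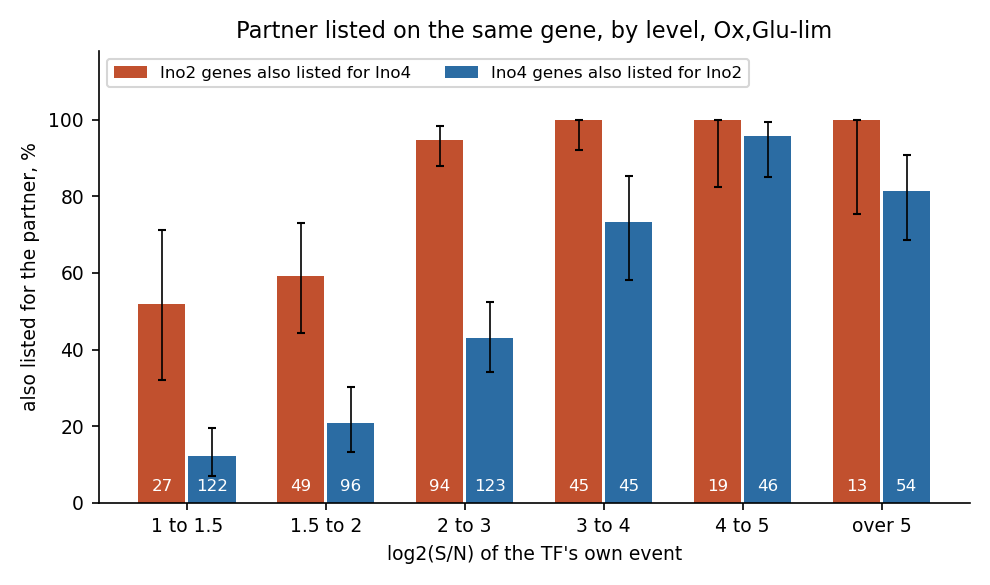
Share of genes, in percent, that were also listed for the partner (y axis), by the log2(S/N) of the factor's own event (x axis), for Ino2 genes (left bars) and Ino4 genes (right bars) under Ox,Glu-lim, with exact 95% Clopper-Pearson intervals and the number of genes at the foot of each bar. Every Ino2 gene above 3 was also listed for Ino4, while the Ino4 share was 12.3% in the lowest class and 81.5% above 5.

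Across the 209 shared genes the 2 factors ordered the genes alike. Pearson's r between the Ino2 and Ino4 log2(S/N) was 0.755 and Spearman's rho 0.722, as a description across genes, many of which share an event. Over the 150 distinct pairs r was 0.752 and rho 0.727. Ino2 minus Ino4 had a median of -0.61 (interquartile range -1.75 to 0.01), and ran from -4.17 to 1.79. Ino2 had the higher value on 54 genes and Ino4 on 155. On all 20 shared genes with the highest Ino4 values, the Ino4 value was above the Ino2 value. These 20 were picked by their Ino4 value, and no Ino2 value exceeded 6.35, so the choice largely fixed this outcome. In the other conditions the same median was -0.17 in Glu-lim, -0.76 in N-lim and -0.57 in Et-lim.

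**Figure D2:**
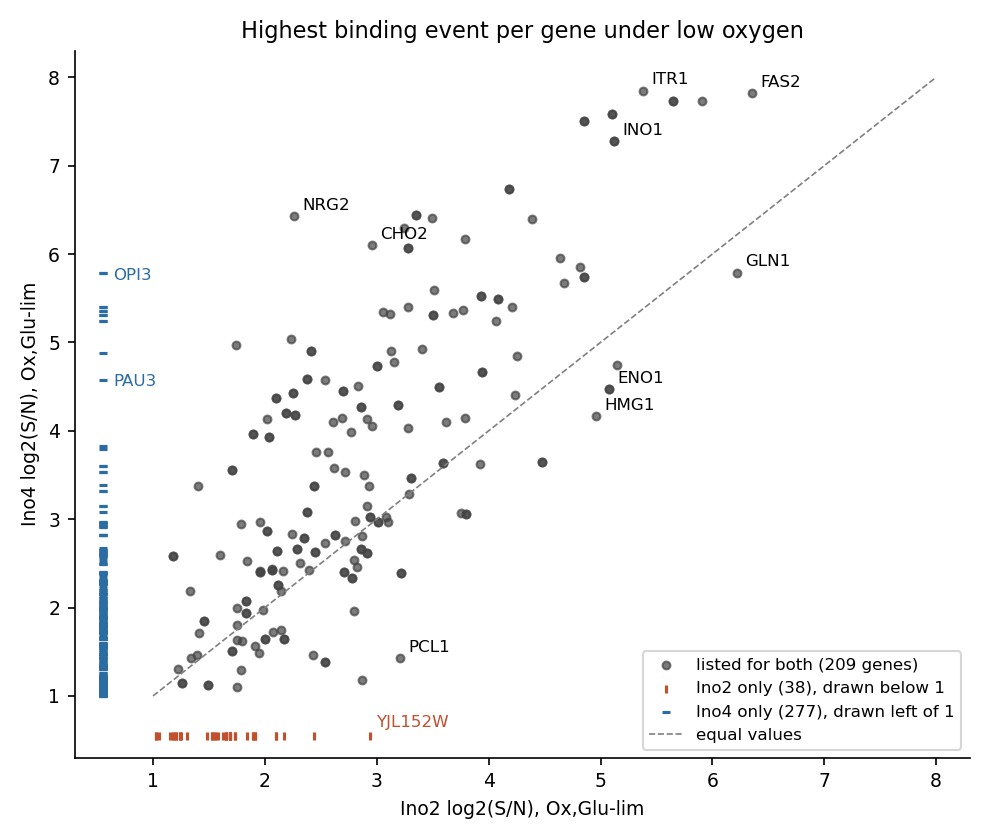
Ino2 log2(S/N) (x axis) against Ino4 log2(S/N) (y axis) of the highest event on each gene under Ox,Glu-lim, with 1 point per shared gene, the 38 Ino2-only genes as ticks below 1, the 277 Ino4-only genes as ticks left of 1, and equal values as a dashed line. Most shared genes lie above the line, GLN1, ENO1, HMG1 and PCL1 lie below it, and the Ino4-only ticks reach 5.78 while the Ino2-only ticks end at 2.94.

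The shared genes with the highest values for both factors were lipid genes and their divergent neighbours. FAS2, the alpha subunit of fatty acid synthase, had 6.35 for Ino2 and 7.82 for Ino4. FAS1, the beta subunit, had 5.91 for Ino2 and 7.73 for Ino4. CPT1, a cholinephosphotransferase, and its neighbour NRK1, a nicotinamide riboside kinase, shared an event with 5.65 for Ino2 and 7.73 for Ino4. The inositol transporter ITR1 had 5.38 for Ino2 and 7.85 for Ino4, the highest Ino4 value under low oxygen. EKI1, an ethanolamine kinase, and its neighbour SWI5, a cell cycle transcription factor, had 5.10 for Ino2 and 7.59 for Ino4. INO1, which makes inositol 3-phosphate and is the classical target of the pair, had 5.12 for Ino2 and 7.28 for Ino4, and the neighbouring open reading frame name YJL150W was listed with the same event. The exception among the 10 was GLN1, glutamine synthetase, with 6.22 for Ino2 and 5.79 for Ino4 at the CACGTGC site printed above.

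The genes that departed most from the common pattern lay on both sides. NRG2, a repressor of glucose-repressed genes, had the most negative difference, with 2.26 for Ino2 and 6.43 for Ino4 (-4.17). SSU1, a sulfite pump, had 1.74 for Ino2 and 4.97 for Ino4. CHO2, the first phosphatidylethanolamine methyltransferase, had 2.96 for Ino2 and 6.10 for Ino4. In the other direction, PCL1, a cyclin of Pho85, had 3.21 for Ino2 and 1.43 for Ino4 (1.79). SOH1, a Mediator subunit, had 2.87 for Ino2 and 1.18 for Ino4, but there the events were 483 bp apart and so were different sites. EGD1 and PMA2 shared an event with 2.54 for Ino2 and 1.38 for Ino4, and the hexose transporter gene HXT1 had 2.43 for Ino2 and 1.46 for Ino4. On 4 shared genes Ino2 was higher by over 1, and on 41 Ino4 was higher by over 2.

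The difference varied with the k-mer of the Ino4 event. On the 83 shared genes where that k-mer held CACATG, the median of Ino2 minus Ino4 was -1.03 and Ino2 was higher on 11. On the 8 genes with CATATG it was -1.62, with Ino2 higher on 1. On the 30 genes with CACGTG it was -0.25, with Ino2 higher on 10. On the 30 genes whose k-mer held CATGC without an E-box it was 0.28, and Ino2 was higher on 21 of them. Counted over distinct pairs of events, Ino2 was higher on 9 of 60 pairs with CACATG and on 14 of 19 pairs with CATGC and no E-box. Among the 6 groups of Ino4 k-mers, counting genes with none as a group, CATGC without an E-box was the 1 group in which most genes had the higher value for Ino2. Its Ino4 values were also lower, with a median of 2.72 against 4.17 in the CACATG group, while the Ino2 medians were 2.78 with CATGC and 2.91 with CACATG. PCL1 and EGD1, named above, belonged to the CATGC group.

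The events of the 2 factors on a shared gene mostly lay at the same place. The median spacing was 1 bp, and 181 of 209 genes, or 86.6% (81.2 to 90.9), had both events within 20 bp. The positions were identical on 6 genes, 1 bp apart on 110 and 2 to 5 bp apart on 19. On 46 genes the spacing was 6 to 20 bp, on 11 genes 21 to 100 bp and on 17 genes over 100 bp. Among the 150 distinct pairs 128 were within 20 bp. The spacing of either factor's events between cultures gave a measure to set beside this. Ino2 events under low oxygen lay within 20 bp of the Ino2 event in Glu-lim on 79.4% of 223 genes, in N-lim on 93.9% of 99 and in Et-lim on 75.1% of 221. For Ino4 the shares were 81.3% of 375 genes in Glu-lim, 82.4% of 136 in N-lim and 78.8% of 151 in Et-lim. Other TFs measured under low oxygen gave a yardstick for promoters with unrelated sites. Where Ino2 shared a gene with Hap1, the heme-responsive zinc cluster regulator, 9 of 41 genes had the events within 20 bp, and with Oaf1, the oleate-responsive regulator, 3 of 29. For Ino4 the numbers were 8 of 70 with Hap1 and 5 of 44 with Oaf1.

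**Figure D3:**
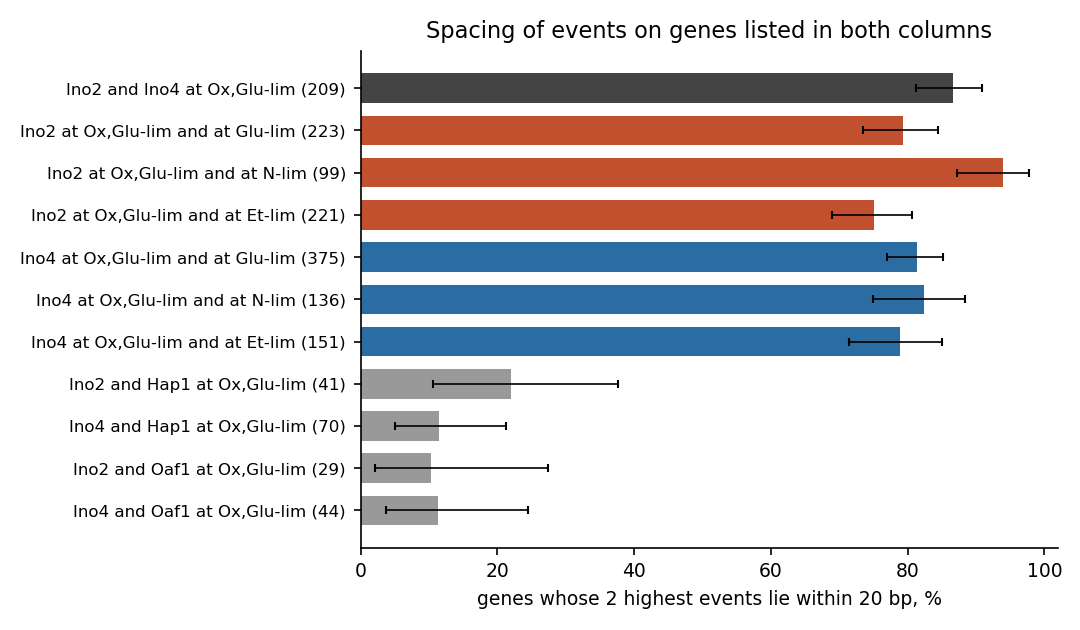
Percent of genes (x axis, with exact 95% Clopper-Pearson intervals) whose 2 highest events lie within 20 bp, for the pairs of columns named on the y axis with the number of genes in parentheses. The pair of Ino2 and Ino4 under Ox,Glu-lim is at 86.6%, in the range of each factor with itself across conditions, and the pairs with Hap1 or Oaf1 are at 10.3% to 22.0%.

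The offset of exactly 1 bp went with the placement of events relative to the k-mer. GEM uses the k-mer to place an event, and at the 43 distinct Ino2 events with CACATGC the centre of the 7-mer lay 2 bp below (24 events) or 4 bp above (19 events) the listed position on the reference strand. At the 72 distinct Ino4 events it lay 3 bp below (34 events) or 5 bp above (38 events), so the Ino4 position was 1 bp farther out on either side. In Glu-lim 209 of the 445 shared genes had identical positions and 20 had positions 1 bp apart. The low-oxygen Ino4 events were also 1 bp from the Glu-lim Ino4 events on 189 of 375 genes and identical on 6. Spacing and k-mer are therefore not independent measures. On the 98 shared genes with the same k-mer for both factors the events were 1 bp apart on 92 and within 20 bp on 96. The 15 genes with no k-mer for either factor gave a measure that this placement does not touch. Of these, 13 had the events within 20 bp, and the median spacing over the 15 was 7 bp. Some of the 15 share an event with a neighbour, as CPT1 and NRK1 do, so there are fewer distinct pairs.

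On some genes the factors' highest events were distinct sites. PSD1, which encodes the mitochondrial phosphatidylserine decarboxylase, had a canonical CACATGC at both events, 82 bp apart, with 1.84 for Ino2 and 2.53 for Ino4. In Glu-lim both highest events of PSD1 were at the site nearer the gene, 317829, where the Ino2 event stayed under low oxygen. OLE1, the fatty acid desaturase gene, had events 143 bp apart, with 1.83 for Ino2 and 1.94 for Ino4. Of the shared genes with both values above 2, YER158C had the widest spacing, at 507 bp. It was followed by STB3 at 297 bp, ECM3 at 206 bp, MET13 at 196 bp and KNH1 at 134 bp. STB3, which encodes a regulator of ribosomal RNA processing genes, carried CACGTGC at both events. MET13, a methylenetetrahydrofolate reductase gene, had an Ino2 event with CACATG and an Ino4 event with CATATG. On the 17 genes with events over 100 bp apart the values were low, with medians of 1.91 for Ino2 and 1.94 for Ino4. The tables gave only the highest event per gene, so a weaker event of the other factor at either site cannot be seen.

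E-box k-mers were listed for 52.6% (45.6 to 59.6) of the shared genes at the Ino2 event and for 34.2% (19.6 to 51.4) of the Ino2-only genes. At the Ino4 event the share was 57.9% (50.9 to 64.7) on shared genes and 49.1% (43.1 to 55.1) on Ino4-only genes. The intervals of the classes overlapped for either factor. With k-mers holding CATGC counted as well, the order at the Ino2 event turned round, to 63.2% on Ino2-only genes against 58.4% on shared genes. CACATG was the most common core in both tables. It was listed at the Ino2 event of 86 of 209 shared and 10 of 38 Ino2-only genes, and at the Ino4 event of 83 of 209 shared and 89 of 277 Ino4-only genes. CACGTG followed, at the Ino2 event of 24 shared and 3 Ino2-only genes and at the Ino4 event of 30 shared and 25 Ino4-only genes. A k-mer with CATGC and no E-box was at the Ino2 event of 11 of 38 Ino2-only genes (28.9%, 15.4 to 45.9) and of 12 of 209 shared genes (5.74%, 3.00 to 9.81). The median of the 11 Ino2-only values was 1.24. Several of the 11 genes share an event with a neighbour, as GYP6 and MHP1 do, so there are fewer events and the interval over genes is too narrow.

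Some k-mers were listed for 1 factor and not for the other. CATATG was at the Ino4 event of 8 shared and 22 Ino4-only genes, and at no Ino2 event. The k-mer CACAAGC, which holds no E-box, was at 7 shared and 14 Ino4-only genes, and likewise at no Ino2 event. TTTTCAC was at 12 shared and 5 Ino2-only genes for Ino2, and at no Ino4 event. How the k-mer sets were chosen is not given in the sources used here, and a k-mer missing from a table is not taken as a measure of missing binding. On EPT1, an ethanolaminephosphotransferase gene, GEM listed TTTCACA for Ino2 and CACAAGC for Ino4 at events 1 bp apart, and both k-mers lie in the single run printed above. The values there were 1.40 for Ino2 and 3.38 for Ino4.

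The motifs were also read directly from R64 in the 41 bases around each distinct event, on both strands. This finds motifs that the k-mer set of a factor does not hold. It is not independent of the k-mers, because GEM uses the k-mer to place the event on which the window is centred. CACATG was present at 47.7% (39.4 to 56.0) of 149 shared Ino2 events and at 28.0% (12.1 to 49.4) of 25 Ino2-only events. It was present at 48.0% (39.8 to 56.3) of 150 shared Ino4 events and at 33.9% (27.2 to 41.0) of 192 Ino4-only events. Of all 41-base windows in the 600 bp upstream of protein-coding genes, 1.03% held CACATG. The core CACGTG was at 21 of 149 shared Ino2, 2 of 25 Ino2-only, 21 of 150 shared Ino4 and 18 of 192 Ino4-only events, and in 0.488% of all windows. CATATG was at 7 of 149 shared Ino2, 1 of 25 Ino2-only, 9 of 150 shared Ino4 and 16 of 192 Ino4-only events, and in 0.962% of all windows. TTTTCAC was at 25 of 149 shared Ino2, 4 of 25 Ino2-only, 26 of 150 shared Ino4 and 16 of 192 Ino4-only events, and in 1.62% of all windows. Thus TTTTCAC lay near shared Ino4 events at about the same rate as near shared Ino2 events, although no Ino4 k-mer had it. Shared events of both factors mostly lay within 20 bp, so these windows overlap and the like rates follow largely from that. On the shared Ino2 events 19 of the 25 windows with TTTTCAC also held an E-box, and the motifs overlap where TTTTCAC runs into CACATG, as in the HNM1 run. The events lay at like distances from the start codon in every class, with medians of 446 bp for shared and 414 bp for Ino2-only genes at the Ino2 event, and 428 bp for shared and 426 bp for Ino4-only genes at the Ino4 event.

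More phospholipid genes were listed for Ino4 than for Ino2, as was the case over all genes. Of 29 genes of phospholipid synthesis, 9 (31.0%) were listed for Ino2 and 15 (51.7%) for Ino4, beside 3.47% of all genes for Ino2 and 6.82% for Ino4. Both were listed on 8 of them, Ino2 only on 1 and Ino4 only on 7. Besides INO1, CPT1, EKI1, CHO2, EPT1 and PSD1, the shared genes were CDS1 and CHO1. CDS1, the CDP-diacylglycerol synthase gene, had 4.85 for Ino2 and 7.50 for Ino4. CHO1, the phosphatidylserine synthase gene, had 2.54 for Ino2 and 4.58 for Ino4. On all 8 the Ino4 value was the higher.

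The 7 phospholipid genes with Ino4 only covered several branches of the pathway. OPI3, the last methyltransferase to phosphatidylcholine, had 5.78. PSD2, a phosphatidylserine decarboxylase outside mitochondria, had 3.53, and PCT1, the phosphocholine-activating enzyme of the choline branch, had 2.97. ALE1, a lysophospholipid acyltransferase, had 2.30 and CKI1, choline kinase, 1.98. PGS1, phosphatidylglycerolphosphate synthase, had 1.91 and the phosphatase LPP1 1.69. URA8, a CTP synthase gene, was the 1 phospholipid gene with Ino2 only, at 1.73 with the k-mer TTCACAT.

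**Figure D4:**
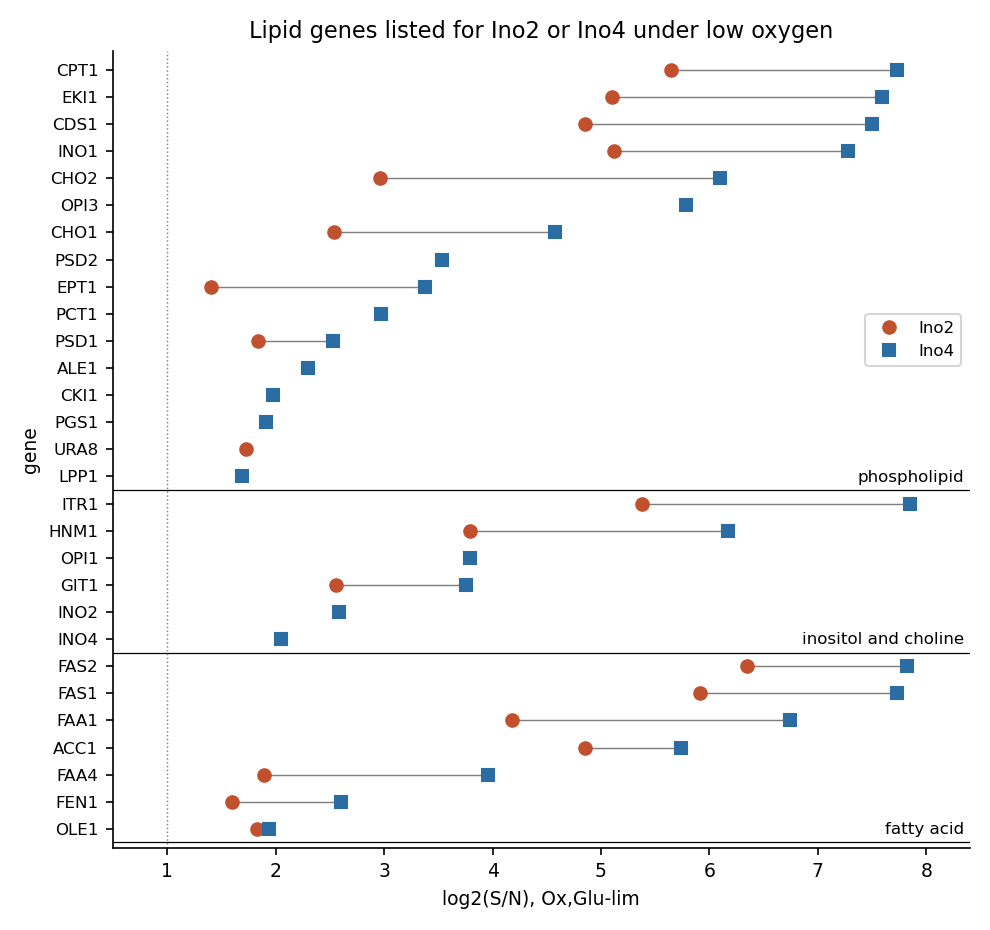
Log2(S/N) under Ox,Glu-lim (x axis) of the members of the lists of phospholipid, inositol and choline, and fatty acid genes (y axis), with circles for Ino2, squares for Ino4 and a line joining the values of genes listed for both. Every shared gene has its square right of its circle, 10 genes have a square alone and URA8 a circle alone.

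Of 14 genes of inositol and choline uptake and regulation, 3 (21.4%) were listed for Ino2 and 6 (42.9%) for Ino4. The shares of all genes were 3.47% for Ino2 and 6.82% for Ino4. Both factors were listed on ITR1, HNM1 and GIT1, Ino4 only on OPI1, INO2 and INO4, and neither on the other 8 genes, which include the transporter gene ITR2 and the regulators SCS2, UME6 and SIN3. HNM1, the choline transporter, had 3.79 for Ino2 and 6.17 for Ino4. GIT1, a glycerophosphoinositol permease, had 2.56 for Ino2 and 3.76 for Ino4, at events 82 bp apart. The promoters of OPI1, INO2 and INO4, the genes of the repressor and of the pair itself, had Ino4 values of 3.79, 2.58 and 2.05. All 3 were listed for Ino2 in Glu-lim, at 3.89 on OPI1, 1.94 on INO2 and 1.83 on INO4, and in Et-lim as well. The INO2 and INO4 genes were tagged at their 3′ ends in the strains of the same name.

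The fatty acid genes had no single-partner member. Of 20 genes, 7 (35.0%) were listed for Ino2 and the same 7 for Ino4, beside 3.47% and 6.82% of all genes. ACC1, acetyl-CoA carboxylase, had 4.85 for Ino2 and 5.74 for Ino4. The acyl-CoA synthetase genes FAA1 and FAA4 had 4.18 and 1.89 for Ino2, and 6.74 and 3.96 for Ino4. FEN1 (ELO2), a fatty acid elongase gene, had 1.60 for Ino2 and 2.60 for Ino4. With FAS1, FAS2 and OLE1, the median of the listed values was 4.18 for Ino2 and 5.74 for Ino4, against 2.44 and 2.24 over all genes listed for the same factor.

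Fewer genes of the other lipid pathways were listed. Of 26 sterol genes, 3 (11.5%) were listed for Ino2 and 6 (23.1%) for Ino4, beside 3.47% and 6.82% of all genes. HMG1, the HMG-CoA reductase gene, had 4.96 for Ino2 and 4.17 for Ino4, and was the 1 shared sterol gene with the higher value for Ino2. ERG20 had 3.19 for Ino2 and 4.29 for Ino4, ERG5 had 3.79 for Ino2 and 4.15 for Ino4, and ERG11, the azole target, had Ino4 only at 1.74. Of 25 sphingolipid genes, 4 were listed for Ino2 and 3 for Ino4. IPT1 had 2.94 for Ino2 and 3.02 for Ino4, SUR1 had 2.81 for Ino2 and 2.98 for Ino4, ISC1 had 1.96 for Ino2 and 2.40 for Ino4, and the hydroxylase gene SUR2 had Ino2 only at 1.15.

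Of 17 glycolysis genes, 3 (17.6%) were listed for Ino2 and 5 (29.4%) for Ino4, beside 3.47% and 6.82% of all genes. The enolase gene ENO1 had 5.08 for Ino2 and 4.47 for Ino4. HXK1 had 2.69 for Ino2 and 4.14 for Ino4, TPI1 had 3.62 for Ino2 and 4.10 for Ino4, and PGK1 had Ino4 only at 1.99. Of 19 genes from pyruvate to acetyl-CoA and ethanol, 1 (5.26%) was listed for Ino2 and 4 (21.1%) for Ino4. ADH3, the mitochondrial alcohol dehydrogenase gene, had 2.46 for Ino2 and 3.76 for Ino4, while ACS1 (2.82), ALD6 (2.18) and ADH5 (1.47) had Ino4 only. Of 21 hexose transport genes, 3 (14.3%) were listed for Ino2 and 5 (23.8%) for Ino4. HXT6 had 4.25 for Ino2 and 4.85 for Ino4, HXT13 had 1.34 for Ino2 and 1.43 for Ino4, and HXT7, a near-identical paralog of HXT6 to which reads may be assigned ambiguously, had Ino4 only at 2.12. PHO84, TDH1, PDC6, HXT3 and ACS2 were listed for neither factor under low oxygen.

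Of 32 methionine and sulfur genes, 6 (18.8%) were listed for Ino2 and 9 (28.1%) for Ino4, beside 3.47% and 6.82% of all genes. The medians were 2.74 for Ino2 and 2.79 for Ino4, and the Ino4 values ran down to 1.07 on SAM3. STR3 had 3.68 for Ino2 and 5.33 for Ino4, SAM2 had 3.15 for Ino2 and 4.78 for Ino4, and MET13 had 3.13 for Ino2 and 4.90 for Ino4. MET6, methionine synthase, had Ino4 only at 5.40. Of 21 hypoxic and heme genes, 6 (28.6%) were listed for Ino2 and 5 (23.8%) for Ino4. Neither factor was listed on the other 14, among them the regulators ROX1, HAP1 and ECM22. MOT3, a repressor of hypoxic genes, had 4.82 for Ino2 and 5.85 for Ino4. The sterol uptake regulators SUT1 and UPC2 had 4.08 and 3.12 for Ino2, and 5.49 and 5.32 for Ino4. The SUT1 event, 1173 bp from that gene, was also assigned to RAD54, a DNA repair gene, at 563 bp. In Glu-lim the highest Ino4 event of SUT1 was at the same site with 2.31, whereas that of Ino2 was at another site, 197381, with 1.71. DAN1, an anaerobic cell wall mannoprotein gene, had 1.96 for Ino2 and 2.97 for Ino4, at events 1 bp apart with CACGTGC, and was listed for neither factor in any aerobic condition.

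The shares on the remaining lists are to be read beside 3.47% of all genes for Ino2 and 6.82% for Ino4. Of 31 cell wall genes, 3 (9.68%) were listed for Ino2 and 7 (22.6%) for Ino4. GAS1 had 2.61 for Ino2 and 4.10 for Ino4, UTR2 had 3.08 for Ino2 and 3.03 for Ino4, and GSC2 (2.39) and CIS3 (2.08) had Ino4 only. Of 21 phosphate genes, 0 were listed for Ino2 and 2 (9.52%) for Ino4, VTC3 at 1.82 and PHM8 at 1.18. Of 51 genes of other amino acids, 4 (7.84%) were listed for Ino2 and 5 (9.80%) for Ino4. After GLN1, the highest were GDH1 with Ino4 only at 2.96, LEU4 with 2.35 for Ino2 and 2.79 for Ino4, and ARG1 with 1.96 for Ino2 and 2.41 for Ino4. Of 25 regulators of respiration, stress and carbon use, 3 (12.0%) were listed for Ino2 and 5 (20.0%) for Ino4. Besides NRG2, the regulator ADR1 had 3.75 for Ino2 and 3.07 for Ino4, TYE7 had 2.39 for Ino2 and 2.42 for Ino4, and XBP1 had Ino4 only at 2.65.

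The strongest genes with Ino4 only under low oxygen were Ino2 targets in aerobic cultures. The 12 Ino4-only genes above 4 had 7 distinct events, and all 12 were listed for Ino2 in Glu-lim and in Et-lim, 9 of them in N-lim too. OPI3 and its neighbour HOC1 had an Ino4 value of 5.78 under low oxygen, and Ino2 values of 6.04 in Glu-lim, 4.80 in N-lim and 6.29 in Et-lim. MET6 and its neighbour IES5 had Ino2 values of 4.15 in Glu-lim, 2.11 in N-lim and 5.73 in Et-lim. FMP48, a gene of a putative mitochondrial protein kinase, had an Ino4 value of 5.35 under low oxygen, and Ino2 values of 7.61 in Glu-lim, 3.67 in N-lim and 7.92 in Et-lim. Chosen after their values were seen, SOD1 (5.31 for Ino4) and PYC1 (4.88 for Ino4) gave the same picture, with Ino2 at 5.71 and 7.11 in Glu-lim.

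Across the whole table, 123 genes were listed for Ino2 in all 3 aerobic conditions. Under low oxygen 98 of these were listed for Ino2 and 25 were not, and 22 of the 25 were listed for Ino4. On 20 of the 22 an aerobic Ino2 event lay within 1 bp of the low-oxygen Ino4 event. Of the 43 genes with Ino2 above 3 in every aerobic condition, 36 were listed for Ino2 under low oxygen and 7 were not (OPI3, HOC1, SOD1, ADO1, FMP48, YGR050C and PYC1, 4 distinct events). For Ino4, 93 genes were listed in all 3 aerobic conditions and 92 of them also under low oxygen, the exception being ARG4. These counts do not compare the factors on equal terms. The Ino4 genes had to be among the 178 listed in Et-lim, where the Ino4 median was 4.68 and the Ino2 median 2.34. Under low oxygen Ino4 was also listed on more genes than Ino2, 486 against 247. On OPI3 the aerobic Ino2 event was at position 573082 of chromosome X in Glu-lim and N-lim and at 573096 in Et-lim, 1 bp from the low-oxygen Ino4 event at 573097. Whether these Ino2 events were missing from the cultures or lost in read trimming, peak calling or the merging of duplicates was not tested.

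**Figure D5:**
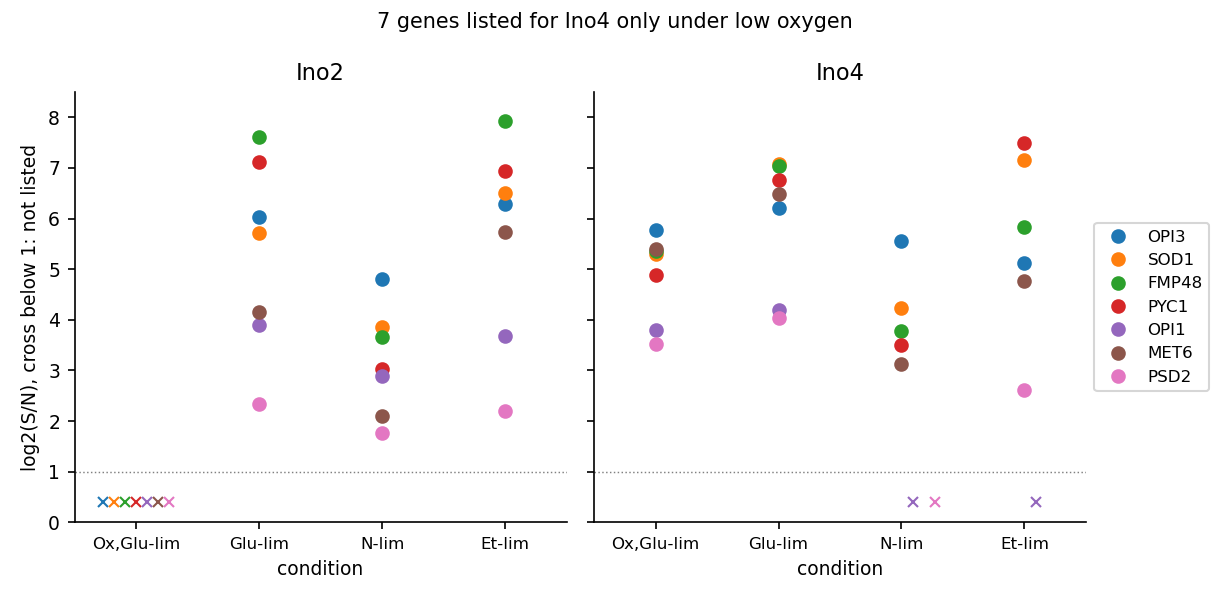
Log2(S/N) of Ino2 (left panel) and Ino4 (right panel) (y axis) in the 4 conditions (x axis) on 7 genes with Ino4 only under Ox,Glu-lim and with Ino2 in all aerobic conditions, where crosses below 1 mark genes that were not listed. The 7 genes have the higher Ino4 values of 22 such genes, from 3.53 to 5.78 under Ox,Glu-lim, with 1 gene shown per event. On the events not shown the Ino4 values ran from 1.12 to 2.82. The lack of an Ino2 value under Ox,Glu-lim is the rule by which the genes were chosen.

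Most Ino4-only genes had the other factor in some aerobic condition, while most Ino2-only genes did not. Of the 277 Ino4-only genes, 214 (77.3%) were listed for Ino2 in at least 1 aerobic condition, 177 of them in Glu-lim and 199 in Et-lim but 23 in N-lim. The other 63 genes were never listed for Ino2. Of the 38 Ino2-only genes, 17 (44.7%) were listed for Ino4 in an aerobic condition and 21 were never listed for Ino4. Over all 7125 genes, Ino2 was listed on 631 in Glu-lim, 133 in N-lim and 725 in Et-lim, and Ino4 on 535, 166 and 178. Shared genes were the most constant. Ino2 was listed in Glu-lim on 198 of the 209, in N-lim on 98 and in Et-lim on 194, and Ino4 in Glu-lim on 194, in N-lim on 112 and in Et-lim on 107. Both factors were listed in all 4 conditions on 64 of the shared genes.

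On the shared genes also listed in Glu-lim, the median of Ox,Glu-lim minus Glu-lim was -1.10 for Ino2 (198 genes, 40 higher under low oxygen) and -0.32 for Ino4 (194 genes, 73 higher). Relative to N-lim the medians were 0.52 for Ino2 (98 genes) and 1.13 for Ino4 (112 genes), and relative to Et-lim they were -1.22 for Ino2 (194 genes) and -0.52 for Ino4 (107 genes). Each condition's values are scaled by the noise of its own libraries, whose depth is unknown, and their part in these shifts was not tested. The part of the Tween and ergosterol in the low-oxygen feed was not tested either.

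The 38 Ino2-only genes had few strong members. YJL152W, an open reading frame name beside INO1, had 2.94 and was listed for Ino4 in N-lim at 6.19. YDR134C had 2.44, the purine-cytosine permease gene FCY2 2.17, and NCA3 and ASF1, which share an event, 2.10. FCY2 was never listed for Ino4, and its Ino2 values were 2.87 in Glu-lim and 2.80 in Et-lim. Chosen after their values were seen because they respond to oxygen in opposite ways, ANB1, expressed at low oxygen, and CYC1, cytochrome c, are divergent genes that share an Ino2 event at 1.89. That event has the canonical CACATGC printed above. In Glu-lim it had 3.10 for Ino2 and 1.54 for Ino4, in Et-lim 4.12 for Ino2 and 3.51 for Ino4, and under low oxygen Ino4 was not listed.

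Some genes were listed under low oxygen alone. Neither factor was listed in an aerobic condition on 9 shared, 8 Ino2-only and 49 Ino4-only genes. On the 9 shared genes, which include DAN1 and MET5, the Ino2 values were 1.33 to 2.44 and the Ino4 values 1.80 to 3.93. The 8 Ino2-only genes had 1.05 to 1.69 and the 49 Ino4-only genes 1.00 to 3.60. The lists end at log2(S/N) 1. Just inside it were ILV5 and ATG33 at 1.03 and URB1 at 1.05 for Ino2, and LSB1, HCM1 and YCR064C at 1.00 for Ino4, and values outside it were not analysed here.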

How the data were processed

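ChIP-exo libraries of TAP-tagged Ino2 and Ino4 were made from chemostat cultures in biological duplicate. Per the study's methods the authors mapped reads to S288C assembly R64-2-1 with Bowtie2, trimmed them from the 3′ end, called events and compared duplicates with GEM, and assigned genes with BEDTools closest, up to a distance limit. The submitters' processing notes name Bowtie2, SAMtools and bedtools, without versions. The deposited log2 values are log2(S/N) of the highest event per gene, where the authors averaged the noise over each replicate. The deposited tables also hold, in other units, positions, k-mers and distances. The CEN.PK reads were aligned to S288C, so strain differences are not represented. Replicates are merged into 1 value per TF and condition, so p-values were not computed and the depth per sample is unknown, which limits precision.

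Tables were joined on gene name (7125 genes, 1 emptied line each). Of the 524 members, 481 were matched to R64 in the RefSeq annotation. The listed distance matched the annotated gene start within 1 bp for all 674 matched entries, and all k-mers (182 for Ino2, 384 for Ino4) were found within 10 bp of their event, so R64 was used to read sequence. Events within 20 bp were counted as 1 site, and motifs were searched within 20 bp of an event. Python 3.11.15, pandas 2.3.3 and SciPy 1.17.1 were used, and the calculations were tested on simulated tables. Members, gene lists and rules were chosen with earlier results of these data known. Named genes were the 10 shared genes with the highest lower value, the 5 highest Ino2-only and Ino4-only genes, the 5 largest differences in each direction, the 5 widest spacings with both values above 2, all listed members of the phospholipid, inositol and fatty acid lists, up to 4 genes of each other list, targets that the study names, and genes nearest the threshold. Some genes that this rule selects are not reported here. Alternatives were higher thresholds, shorter distances, 1 gene per event, protein-coding genes only, and other site and motif windows. Pip2 and the aerobic columns of Hap1 and Oaf1 were not used here.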

Additional observations from a re-analysis of the deposited data

How the results depend on the processing

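No paired analysis was possible because the replicates are merged into 1 value per factor and condition, and for the same reason no replicate could be left out. Of 86 values recomputed under other settings, 69 stayed within their counting interval or within 1.5 times the count and 17 moved further. The median of Ino2 minus Ino4, the only measure that can take either sign, stayed negative. With log2(S/N) above 1.5, Ino4-only genes numbered 177 and the share of Ino4 genes also listed for Ino2 was 51.4%. With a threshold of 2, there were 15 Ino2-only and 112 Ino4-only genes, 91.2% of Ino2 genes were also listed for Ino4 and 58.2% of Ino4 genes for Ino2. The medians were then 2.98 (Ino2, shared), 2.43 (Ino2 only), 4.17 (Ino4, shared) and 2.58 (Ino4 only), which follows from the threshold itself. At the same threshold 91.7% of shared genes had events within 20 bp and 8.33% of Ino2-only events held CACATG. Within 600 bp of the gene 137 genes were shared. A site limit of 10 bp gave 76.6% of shared genes at 1 site. With CATGC counted as an E-box, the k-mer shares were 63.2% on Ino2-only genes and 58.4% at the Ino2 event of shared genes, which turned the order of these classes round, 72.2% at the Ino4 event of shared genes and 63.2% on Ino4-only genes. The lack of per-sample values and of read depth limits every comparison, the tables hold 1 event per gene and condition, and genes that share an event are not independent.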

Other observations

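Values differed by chromosome in a way the lists above do not show. On chromosome X the median of Ox,Glu-lim minus Glu-lim was 0.13 for Ino2 (24 genes) and 0.20 for Ino4 (25 genes). On the other chromosomes with at least 10 genes the Ino2 medians ran from -1.47 on XII (10 genes) to -0.36 on VIII (11 genes), and the Ino4 medians from -1.04 on XIV (23 genes) to 0.09 on XIII (41 genes). Relative to Et-lim the Ino2 median on chromosome X was 0.02 (23 genes), and the others with at least 10 genes ran from -1.84 on XII to -0.76 on VIII. The other comparisons did not set chromosome X as high. For Ino4 relative to Et-lim its median was -0.32 (11 genes), and the others ran from -1.71 on XIV to 0.59 on V. For Ino4 relative to N-lim its median was 0.23 (14 genes), below the others, which ran from 0.49 on XV to 1.57 on V. Of the 38 Ino2-only genes, 10 lay on chromosome X (6 of 25 distinct events), beside 18 of the 209 shared and 15 of the 277 Ino4-only genes. Chromosome X also held OPI3, HOC1, SOD1 and ADO1, which lacked Ino2 under low oxygen. On chromosome III 20 genes had Ino4 only, 2 were shared and 0 had Ino2 only. Many of these genes share an event with a neighbour, and no test was made of these differences.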
